A study of Mus musculus with 2 samples.

Results

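A set of 9 genes of insulin signalling and of glucose transporter trafficking were compared between 2 kinds of differentiated cells from mouse fat. They are Insr, Irs1, Irs2, Pik3r1, Akt2, Foxo1, Tbc1d4, Slc2a4 and Trarg1. They were chosen by name, with earlier results of these data known, and were found on the array through the RefSeq transcript that each probe carries. All 9 were found, on 16 probes, among 20884 named genes and 39425 probes. The cells came from the epididymal fat of male C57/BL mice, which was digested with collagenase. Small proliferative adipocytes are the cells that sedimented when the floating fraction was spun again, and stromal vascular cells are those left beneath the floating fraction. Cultures of both reached 90% confluency and were then kept for 3 days with insulin, dexamethasone and IBMX, a cocktail that induces adipocyte differentiation, and for 2 more days in plain medium. The differentiated cells are called SPAD and SVCD, and RNA of each was hybridised to 1 single-colour array. Both groups had been exposed to insulin in the induction medium. The labels do not say how many mice or cultures each RNA came from.

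Insulin binds a receptor tyrosine kinase on the cell surface, which phosphorylates insulin receptor substrate (IRS) proteins. These recruit phosphoinositide 3-kinase (PI3K), whose lipid product activates the kinase Akt. In fat and muscle cells, Akt then inactivates a brake on Rab proteins, and vesicles that hold the glucose transporter GLUT4 move to the cell surface. Akt also drives FoxO transcription factors out of the nucleus, and FoxO1 in turn promotes transcription of Insr and Irs2 when insulin is low.

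With 1 array per group no difference could be tested, and no p-value is given. Differences are log2 values of SPAD minus SVCD after each array was scaled to its 75th percentile, and a gene with several probes is represented by the brightest. The error given with a difference comes from the SD between repeat spots of probes of similar signal, combined for both arrays. For a probe printed in several spots, such as that of Slc2a4, the error is that of the mean of its spots and is smaller. It holds the error between spots and leaves out any difference between cultures. Intensities are unscaled, and different probes cannot be compared with each other in level. "Detected" means well above background by the scanner software. Negative control spots had a median intensity of 2.67 for SPAD and 2.11 for SVCD, with single spots up to 14.6 and 60.5.

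Of the 9 genes, 5 reached a 2-fold excess in SPAD (Trarg1, Slc2a4, Irs2, Foxo1 and Insr) and none was lower by that size. All 9 were detected on both arrays. Among all 14074 genes so detected, 14.4% were higher by 2-fold or more and 13.3% lower. A positive difference was found for 7 of the 9, against 53.7% of all genes. By probe, 8 of the 16 were higher by 2-fold or more and 1 was lower, against 14.1% and 13.1% of the probes of named genes. The median log2 difference of the 9 genes was 1.24, against 0.07 over all genes. Since the 9 genes were chosen with earlier results of these data known, these comparisons with all genes test nothing. The order of the differences was Trarg1, Slc2a4, Irs2, Foxo1, Insr, Irs1, Pik3r1, Akt2 and Tbc1d4. Within that order, Foxo1 and Insr lay within their spot error of each other, as did Akt2 and Tbc1d4. With the arrays scaled to their spike-in controls in place of the 75th percentile, the median of all genes moved from 0.07 to -0.76. Every difference of SPAD minus SVCD moves down by that step, as Insr did from 1.24 to 0.41. Relative to the median of all genes, the differences were 4.55 (Trarg1), 2.90 (Slc2a4), 1.83 (Irs2), 1.24 (Foxo1), 1.17 (Insr), 0.87 (Irs1), 0.31 (Pik3r1), -0.46 (Akt2) and -0.52 (Tbc1d4), whichever of these 2 scalings is used. With spike-in scaling the counts changed to 3 genes higher by 2-fold or more (Trarg1, Slc2a4 and Irs2) and 2 lower, Tbc1d4 at -1.28 and Akt2 at -1.22, while 736 of all genes were higher and 5326 lower.

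**Figure D1:**
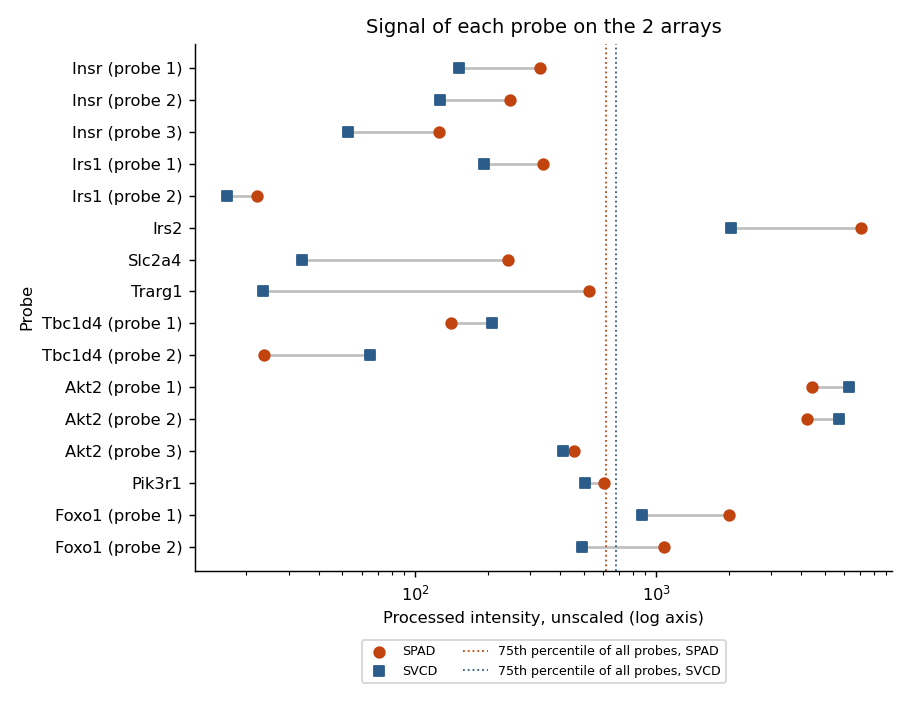
Unscaled processed intensity (log axis) of all 16 probes of the 9 genes, with SPAD as circles and SVCD as squares; probes of a gene are numbered by signal, and dotted lines are the 75th percentile of all probes on each array (622 and 678). The SPAD value is the higher one for 12 probes in this plot of unscaled signals, and both Tbc1d4 probes and the 2 brightest Akt2 probes are higher in SVCD.

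The labels call the first population adipocytes, and most adipocyte markers, but not all, were higher on its array. Of 10 adipocyte markers, 9 were detected, each on both arrays. At least 2-fold higher in SPAD were 7, among them Adipoq, the adiponectin gene (intensity 336 against 22.7, log2 difference 4.02 ± 0.28), and Pparg, the master regulator of adipogenesis (1.98 ± 0.03). Cidec was counted among the 7 by its brighter probe (3.59), while its other detected probe differed by -0.004. Lpl, the lipoprotein lipase gene, was lower (-2.77 ± 0.08), Cebpa differed by -0.43 ± 0.08, and Lep, which encodes leptin, was above background on neither array. The summed scaled signal of the adipocyte list was 203 times the 75th percentile in SPAD and 82.9 times in SVCD. Such sums follow the brightest probes. Without Fabp4 the adipocyte sums were 28.3 and 36.8, the higher one then being that of SVCD, where Lpl was bright (20821 against 2806 in SPAD). Without Fabp4 the sum and the count of markers thus pointed in opposite directions. In RNA of mixed cells, more cells of a type and more RNA per cell cannot be told apart. Other lists differed too. Of 10 endothelial markers, 9 were at least 2-fold higher in SPAD (summed signal 34.2 against 8.08). Of 9 macrophage markers detected, 6 were at least 2-fold lower (200.1 against 318, or 41.8 against 194 without Lyz2, which itself differed by 0.35), and Fcgr1 was detected in SVCD alone. Also at least 2-fold lower were 6 of 7 smooth muscle and myofibroblast markers (29.7 against 365), 5 of 8 mesothelial markers (2.04 against 17.4) and 6 of 6 cell division genes (0.92 against 26.4). Of 6 skeletal muscle markers, the other tissue with insulin-responsive GLUT4, 4 were not well above background on either array, Myod1 and Myog among them. Tnnt3 was detected only in SPAD, at an intensity of 14.0, and Acta1, the skeletal muscle actin gene, was 14.3-fold lower in SPAD (131 against 2040.1). The summed signal of this list was 0.27 against 3.05, and 0.054 against 0.037 without Acta1. The part of these cell types in the differences below was not tested.

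Insr, which encodes the insulin receptor, was read by 3 probes. Its brightest probe gave an intensity of 329 in SPAD and 152 in SVCD, and the others gave 247 against 127 and 126 against 52.7. SPAD was thus the higher array on each probe. The log2 differences were 1.24 ± 0.10, 1.08 ± 0.11 and 1.39 ± 0.14, a 2.36-fold difference on the brightest probe. Of all detected genes, 89.7% had a lower value of SPAD minus SVCD, with genes lower in SPAD included. Igf1r, the closely related receptor for insulin-like growth factor, differed by 0.80 ± 0.09 (intensity 841 against 525). Insr was below 2-fold with normexp background correction (0.94) and with spike-in scaling (0.41).

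Irs2, which encodes a main insulin receptor substrate, was read by a single probe. It gave an intensity of 7045 in SPAD and 2051 in SVCD, both far above the 75th percentile of their arrays. The log2 difference was 1.91 ± 0.08, or 3.75-fold, and 674 of the 14074 detected genes had a larger one in favour of SPAD. Irs1, the other widely expressed substrate, gave 339 against 192 on its brighter probe, a difference of 0.94 ± 0.10 (1.92-fold). Its dimmer probe, at 22.2 and 16.6, differed by 0.54 ± 0.54, which is no more than its spot error. Irs1 thus lay just under 2-fold in these values, and at 0.11 with spike-in scaling. The remaining substrates, Irs3 (32.2 against 28.1, difference 0.32 ± 0.39) and Irs4 (62.1 against 61.8, difference 0.13 ± 0.16), were dim and within spot error of equal signals.

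The windows before the start sites of Irs1, Irs2 and Irs4 are shown because they share a motif pair that few promoters hold. They are the 250 bases before the annotated start in RefSeq (GRCm38.p6), printed in the direction of transcription. Of the 9 genes, 6 had a window in the table used. Capitals mark CACGTG, the E-box, and CAAAACA or its reverse complement TGTTTTG, the core of the insulin response element that FoxO proteins can bind.
Irs1, chr1:82291440-82291689, minus strand: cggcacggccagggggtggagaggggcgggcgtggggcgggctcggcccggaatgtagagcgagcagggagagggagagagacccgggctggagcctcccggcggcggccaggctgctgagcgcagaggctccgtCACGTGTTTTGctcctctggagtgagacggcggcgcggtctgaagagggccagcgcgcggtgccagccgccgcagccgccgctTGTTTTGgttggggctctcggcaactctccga
Irs2, chr8:11008930-11009179, minus strand: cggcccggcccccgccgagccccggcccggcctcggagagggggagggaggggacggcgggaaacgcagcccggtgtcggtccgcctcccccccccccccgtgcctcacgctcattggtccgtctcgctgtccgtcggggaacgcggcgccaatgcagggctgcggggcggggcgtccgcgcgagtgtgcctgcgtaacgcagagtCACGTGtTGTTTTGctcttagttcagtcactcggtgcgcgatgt
Irs4, chrX:141725218-141725467, minus strand: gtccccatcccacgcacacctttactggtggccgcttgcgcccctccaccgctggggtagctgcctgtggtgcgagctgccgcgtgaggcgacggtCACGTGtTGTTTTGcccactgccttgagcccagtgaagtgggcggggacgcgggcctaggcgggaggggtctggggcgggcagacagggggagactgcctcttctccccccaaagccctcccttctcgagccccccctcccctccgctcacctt
In Irs2 the E-box begins 44 bases and the insulin response core 37 bases before the start site. In Irs4 they begin 154 and 147 bases before it, with the same spacing and the same letters between. In Irs1 the motifs overlap, at 115 and 111 bases, and a second insulin response core lies 32 bases before the start. Both strands were searched. Over all 32851 windows of this length, 6.02% held an E-box and 5.56% an insulin response core. Only 97 held both, and 7 (0.0213%) had them beginning within 10 bases of each other, 3 of which are Irs1, Irs2 and Irs4. The windows of Irs3, Foxo1, Tbc1d4, Akt2 and Pik3r1 held neither motif. They also lacked GTAAACA, the FoxO core (in 3.17% of windows), and TGACGTCA, the cAMP response element (in 1.55%). All of these are matches of letters only. The motif pair and its distance limit were chosen after the data were seen, so the rarity of the pair tests nothing. Of the 7 genes with the close pair, 6 had a probe, and their differences ran from -0.74 ± 0.54 (Klf11) to 1.91 ± 0.08 (Irs2).

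Pik3r1 and Akt2, the next steps after the receptor substrates, differed by less than 2-fold. Pik3r1, which encodes the main regulatory subunits of PI3K, gave an intensity of 606 in SPAD and 508 in SVCD, a difference of 0.38 ± 0.09 (1.30-fold). It is the one gene of the set whose brightest probe changes sign with spike-in scaling (-0.45). Of its paralogs, Pik3r2 differed by -0.44 ± 0.08 and Pik3r3 by 0.17 ± 0.11. Akt2, the Akt kinase most tied to glucose uptake in fat, was read by 3 probes that did not point the same way. Its bright probes gave 4419.6 against 6308 and 4199 against 5710.1, differences of -0.39 ± 0.08 and -0.32 ± 0.08. Its dimmer probe gave 454 against 412, a difference of 0.27 ± 0.09. Akt2 was the only one of the 5 genes of the set with several probes whose probes had both signs. Among the 3557 genes with several detected probes, 25.6% had both signs. Akt1 differed by 0.26 ± 0.08. None of Pik3r1, Pik3r2, Pik3r3, Akt2 and Akt1 was 2-fold apart in these values. With spike-in scaling Akt2 was lower by more than 2-fold (-1.22). So was Pik3r2, whose difference lies below that of Akt2 before the common shift.

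Foxo1, the transcription factor that Akt restrains, was higher in SPAD on both of its probes. They gave an intensity of 1995 against 876 and of 1079 against 492. The differences of 1.31 ± 0.08 and 1.26 ± 0.08 were within spot error of each other, 2.49-fold on the brighter probe. With spike-in scaling the brighter probe was below 2-fold (0.48). Foxo3 (38.5 against 30.9, 0.44 ± 0.39) and Foxo4 (-0.45 ± 0.54) were dim, and their differences were about the size of their spot error or smaller.

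**Figure D2:**
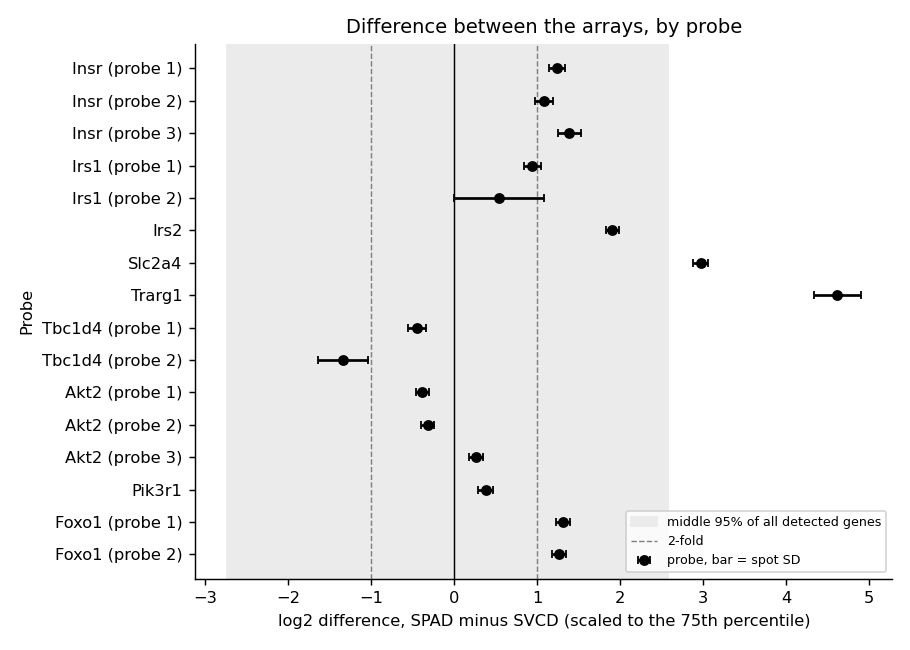
log2 difference (SPAD minus SVCD, scaled to the 75th percentile) of each probe of the 9 genes. Bars are the spot error, which for Slc2a4 is that of the mean of 10 spots. Dashed lines mark 2-fold and the grey band holds the middle 95% of all detected genes (-2.74 to 2.57). Slc2a4 and Trarg1 lie to the right of the band, and the probes of Insr and of Foxo1 lie close together past the 2-fold line.

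Tbc1d4 encodes the Rab GTPase-activating protein that holds GLUT4 vesicles inside the cell until Akt phosphorylates it. Its brighter probe gave an intensity of 140 in SPAD and 209 in SVCD, a difference of -0.45 ± 0.11. The dimmer probe gave 23.6 against 65.2, a difference of -1.34 ± 0.30. Both probes were thus lower in SPAD, but they differ from each other in size, and only the dimmer one passed 2-fold. The related Tbc1d1 was lower too, at 1267 against 3683 (-1.41 ± 0.08), with -0.74 on its other probe.

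Slc2a4, which encodes GLUT4, was printed in 10 repeat spots on each array. In SPAD the spots ran from 219 to 270.2 with a median of 243, and in SVCD from 30.1 to 38.2 with a median of 33.6. The spots of the 2 arrays did not overlap, but they are repeats of 1 hybridised RNA each. The log2 difference was 2.97 ± 0.09, with the error of the mean of 10 spots, or 7.83-fold. A larger one in favour of SPAD was found for 240 detected genes. Both values lie below the 75th percentile of their arrays, and a signal near 34 in SVCD is sensitive to how background is removed: with normexp the difference was 1.79. Spike-in scaling gave 2.14, so the difference stayed above 2-fold in each setting that kept the gene. Slc2a1, the gene of the ubiquitous transporter GLUT1, differed by 0.84 ± 0.08 (15538 against 9486) and was not 2-fold apart.

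**Figure D3:**
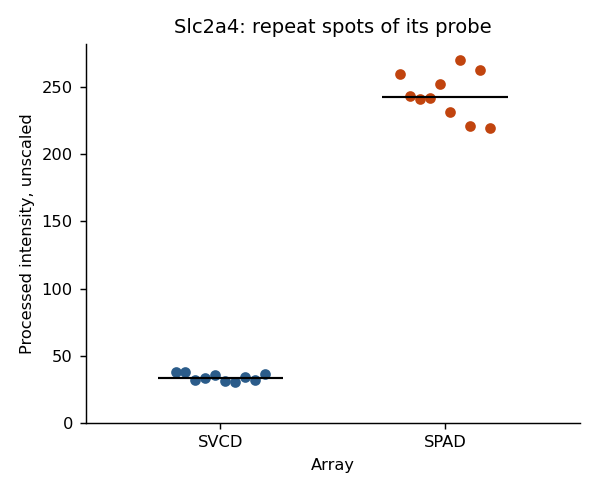
Unscaled processed intensity of the 10 repeat spots of the Slc2a4 probe on each array, with the median as a bar; the horizontal spread is only to separate points. The SVCD spots lie between 30.1 and 38.2 and the SPAD spots between 219 and 270.2.

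Trarg1 encodes a membrane protein of GLUT4 vesicles that takes part in sorting the transporter. It had the largest difference of the set, with an intensity of 528 in SPAD and 23.5 in SVCD on its single probe. The log2 difference was 4.62 ± 0.28, or 24.5-fold, and only 44 detected genes had a larger one in favour of SPAD. The size rests on the dim SVCD value: it was 2.68 with normexp and 3.78 with spike-in scaling. In both settings Trarg1 remained first and Irs2, Slc2a4 and Trarg1 stood above the other 6 genes. For comparison, the detected adipocyte markers ran from 7.34 ± 0.12 (Cfd) to -2.77 ± 0.08 (Lpl). Among them Plin1, of the lipid droplet coat (4.17 ± 0.28), and Adipoq (4.02 ± 0.28) had differences of similar size. Both were dim in SVCD too (29.0 and 22.7). The endothelial marker Sox17 differed by 3.74 ± 0.28 on its brighter probe and by 2.83 on its other probe.

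Genes of the wider pathway lay on both sides of 0, most of them within 2-fold. Other genes of insulin action were grouped in 8 lists by role. Of 118 such genes detected on both arrays, 12 (10.2%) were higher by 2-fold or more and 15 (12.7%) lower, no more than the 14.4% and 13.3% of all genes. Their median log2 difference was 0.15. The list medians, with the 9 genes included, ran from -0.47 to 0.36 over genes detected on both arrays, and all 8 were below 0 with spike-in scaling. The counts per list below include genes detected on 1 array, at their bound, for which the shares over all 15625 genes were 16.3% higher and 14.1% lower.

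**Figure D4:**
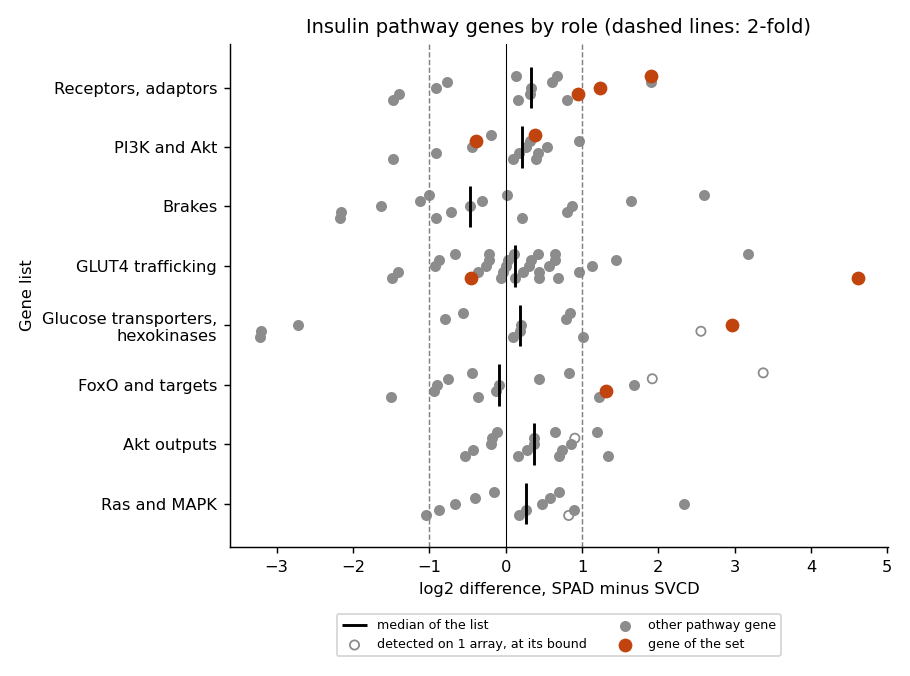
log2 difference (SPAD minus SVCD) of each detected gene of the 8 insulin pathway lists; large coloured points are the genes of the set, open circles are genes detected on 1 array (at their bound), black bars are list medians with the set included, and dashed lines mark 2-fold. Trarg1 at 4.62 and Slc2a4 at 2.97 are the highest points of their lists, and most other genes lie between the dashed lines.

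Among 12 other receptors and adaptors, 1 was at least 2-fold higher and 2 were lower. Cblb, a ubiquitin ligase, was lower (-1.47 ± 0.08, and -0.92 on its other probe), as was the docking protein gene Dok1 (-1.39 ± 0.08). Of 12 other PI3K and Akt genes, 1 was lower: Pik3cd, the catalytic subunit typical of leukocytes (-1.47 ± 0.08, and lower on all 3 probes). Pik3ca, the ubiquitous catalytic subunit, differed by 0.96 ± 0.10. Of 15 brakes on the pathway, 2 were higher and 5 lower. The Akt inhibitor gene Trib3 was 6.03-fold higher (intensity 13768 against 2490.4) and Socs3, a cytokine-induced inhibitor of receptor signalling, 3.11-fold higher. Inpp5d, a lipid phosphatase of blood cells (-1.63 ± 0.08), Enpp1 (-2.16 ± 0.29) and Pik3ip1 (-2.16 ± 0.29) were lower.

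Of 29 other genes of GLUT4 trafficking, 3 were at least 2-fold higher and 2 lower. Doc2b, a calcium sensor of vesicle fusion, was 9.03-fold higher, but dim in SVCD (153 against 18.5, 3.17 ± 0.47). The vesicle SNARE gene Vamp2 was 2.73-fold higher (1.45 ± 0.08) and Clip3 2.20-fold higher. Lrp1, a cargo receptor of the vesicles that also serves lipoprotein uptake, was lower (-1.49 ± 0.08). Lnpep, the aminopeptidase that travels with GLUT4, differed by 0.23 ± 0.09, the sorting receptor gene Sort1 by 0.33 ± 0.08, and the fusion genes Stx4a and Snap23 by -0.03 and 0.00. Of 12 other transporters and hexokinases, 2 were higher and 3 lower. The lower ones were Slc2a9, a urate transporter (-3.22 ± 0.47), Hk3, a hexokinase of myeloid cells (-3.21 ± 0.08), and Slc2a6 (-2.73 ± 0.13). Slc2a5, the fructose transporter gene, was detected only in SPAD, where it was higher by at least 5.89-fold. Hk2, the insulin-regulated hexokinase, differed by only 0.20 ± 0.08. The macrophage markers, 6 of 9 of which were lower in SPAD, moved in the direction of Hk3, Inpp5d and Pik3cd, and their part in these differences was not tested.

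Of 14 other FoxO factors and targets, 4 were higher and 1 lower. Pck1, which makes glycerol precursors in fat, was detected in SPAD alone (81.7 against 6.5, at least 10.4-fold higher), as was Klf15 (29.8, at least 3.79-fold). Ccng2 (1.68 ± 0.14) and Sesn3 (1.22 ± 0.14) were higher and Txnip lower (-1.50 ± 0.08). Of 16 genes of other Akt outputs, Eif4ebp1, a repressor of translation (1.34 ± 0.08), and Akt1s1 (1.19 ± 0.09) were higher and none was lower. Pde3b, the phosphodiesterase by which insulin restrains lipolysis, differed by 0.17 ± 0.08, and the lipogenic gene Fasn by -0.18 ± 0.14. In the Ras and MAPK arm, 1 of 13 was higher and 1 lower, the phosphatase gene Dusp6 (-1.04 ± 0.08).

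**Figure D5:**
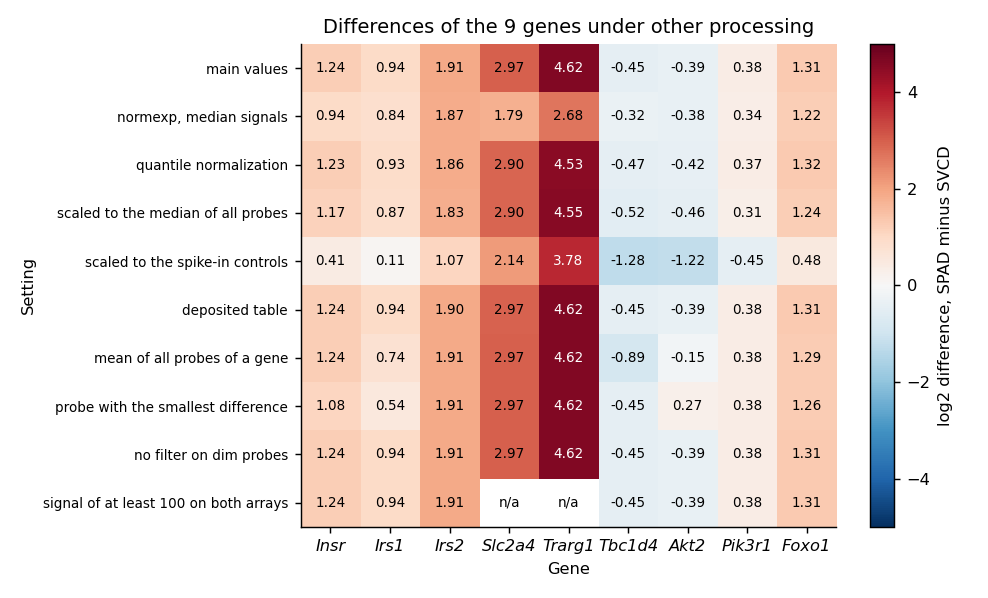
log2 difference (SPAD minus SVCD) of the 9 genes in the main values and 9 other settings; n/a marks a gene removed by the signal minimum of that setting. Trarg1, Slc2a4 and Irs2 are above 1 in each setting that keeps them, and Pik3r1 and Akt2 change sign in 1 setting each.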

How the data were processed

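Per the labels, Cy3-labelled cRNA was made from 30 ng of RNA and hybridised to single-colour Agilent arrays, 1 per group; the number of arrays limits the precision. Per the submitters' processing notes, the scans were read with Agilent Feature Extraction 10.7.3.1. The deposited intensity of each spot is background-subtracted and linear, per the file headers, which also give the flags used. A deposited table gives log2 values that were opposite in sign on the 2 arrays, to within 0.0001, for all 39485 probes, so only their differences were used; its scaling is not stated in the sources used here.

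Control spots and 73 (SPAD) and 85 (SVCD) outlier spots were left out, repeat spots were averaged on the log2 scale, and each array was scaled to its 75th percentile (an intensity of 622 and 678). Of 39425 probes, 25411 and 25867 were well above background, and 27506 (69.8%) carried a transcript that matched the RefSeq table (GRCm38.p6, accession without version), which gave names. No non-control spot was saturated. A gene was read from its brightest probe. A gene detected on 1 array was set against the higher of its own dim value and the lowest detected signal of that array. Spot SDs came from 309 repeated probes with at least 8 spots, where well above background. They were taken in 6 classes of signal, from 0.47 under 20 to 0.06 over 1000. Each variance was divided by the number of spots of the probe, and the arrays were combined. The averaging of spots, the scaling and the spot SDs were tested on simulated data, with known changes placed only in bright probes. The choice of the brightest probe, the bound and the combined error were not tested in this way. Python 3.11.15, numpy 2.4.6 and limma 3.58.1 were used.

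Named genes were drawn from the 9 genes, their isoforms, up to 5 genes per pathway list and up to 3 per cell type list by size of difference. Adipoq, Pparg, Cidec, Lpl, Cebpa, Lep, Fabp4, Lyz2, Myod1, Myog, Irs3, Irs4, Lnpep, Sort1, Stx4a, Snap23, Hk2, Pde3b and Fasn were added after their values were seen. The 9 genes and all lists were chosen with earlier results of these data known. The promoter motifs, their pairing and the 10-base limit were chosen after the data were seen. Of the listed symbols, 3 (Ralgapb, Slc2a12 and Cd68) matched no probe. Some genes of the lists are not reported by name here.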

Additional observations from a re-analysis of the deposited data

How the results depend on the processing

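The main values were set against 9 alternatives. Of the 79 values of single genes of the set under these, 58 stayed within the spot error of the main value and 21 moved further. Scaled to the spike-in controls (8 control probes), 3 of the 9 genes were higher in SPAD by 2-fold or more (Trarg1, Slc2a4 and Irs2) and 2 lower (Tbc1d4 and Akt2). In that setting 736 of all genes were higher and 5326 lower, against 2029 and 1874 in the main values, and 4 and 45 of the other pathway genes, against 12 and 15. Both arrays were labelled from 30 ng of RNA, so neither scaling measures RNA per cell. Which scaling is nearer to the true differences was not tested. With a signal of at least 100 required on both arrays, 3 genes of the set were higher (Slc2a4 and Trarg1 no longer being measured), as were 1195 of all genes, with 1100 lower; fewer genes enter that setting. With no filter on dim probes, 3371 genes were higher. In the other settings these counts stayed within 1.5 times the main ones. Normexp was run on the median spot signals, a choice made after the files were seen, in place of the mean signals first planned. Signal over background limits Trarg1, Slc2a4, Foxo3, Foxo4 and the dimmer probes of Irs1 and Tbc1d4. No paired analysis was possible because each group has 1 array.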

Other observations

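The 7 promoter windows with an E-box and an insulin response core within 10 bases of each other belonged to Irs1, Irs2, Irs4, Klf11, Pcbp1, Pyroxd1 and 1700019P21Rik, the last of which had no probe here. Klf11 differed by -0.74 ± 0.54 at a dim signal, Pyroxd1 by 0.13 ± 0.11 and Pcbp1 by 0.00 ± 0.08. None of these 3 was 2-fold apart.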
